A study of Homo sapiens with 9 samples.

Results

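Long intergenic non-coding RNAs (lincRNAs) were measured in HEK293 cells with reduced SmcHD1, through every array probe whose name is a genomic region tagged as lincRNA. There were 8263 such probes among 42405 non-control probes, and they covered 7405 regions on GRCh37, 4087 probes on the forward strand and 4176 on the reverse strand. HEK293 is a human embryonic kidney cell line transformed with adenovirus DNA. All 3 groups were stable, puromycin-selected populations made with the same GFP-carrying retroviral vector, and they differed in the short hairpin RNA (shRNA) it expressed. KD3 carried shRNA 3 and KD4 carried shRNA 4, both against SMCHD1, and CTL carried the control hairpin NC5. Each group had 3 one-color Agilent arrays, described as biological triplicates, and each knock-down was compared with CTL to find the RNAs that changed with it. Neither the labels nor the methods say whether the triplicates of an shRNA came from separately infected populations. The effect of a hairpin and of a population's history therefore cannot be told apart.

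A lincRNA is a long transcript made from DNA between protein-coding genes and not translated into protein. Some lincRNAs act on chromatin, some act in the cytoplasm, and for most regions on such an array no function is known. SMCHD1 is a chromatin protein related to the SMC proteins that shape chromosomes, known for its part in silencing genes on the inactive X chromosome and in clusters of genes on autosomes.

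The hairpin inserts are shown because they alone define the groups. Each is 68 bases long and is written 5′ to 3′ as the labels give it, with the longest stretch of the 5′ arm that pairs perfectly with the 3′ arm in capitals. The loop, ttcaagaga, starts at base 30 in each.
KD3: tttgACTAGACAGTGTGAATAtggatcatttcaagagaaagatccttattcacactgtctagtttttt
KD4: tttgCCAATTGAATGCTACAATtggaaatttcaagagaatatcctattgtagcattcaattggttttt
CTL: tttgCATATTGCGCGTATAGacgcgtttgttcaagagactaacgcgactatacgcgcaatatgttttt
The perfectly paired stretch was 17 bases in KD3, 18 in KD4 and 16 in CTL.

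The targeted gene was lower in both knock-downs at all 3 of its probes. Log2 fold changes of SMCHD1 ranged from -1.03 to -0.97 in KD3 and from -1.54 to -1.51 in KD4. Its probe A_24_P400997 read 11.20, 11.37 and 11.22 in CTL, 10.40, 10.16 and 10.32 in KD3 and 9.63, 9.80 and 9.77 in KD4 (log2 normalized signal), so the 3 groups did not overlap. Each array detected between 75.1% and 79.8% of all probes as well above background, and the lowest correlation between replicate arrays of a group was 0.995 over all tested probes and 0.986 over tested lincRNA probes. All 7 HEK293 marker genes were well above background on all 9 arrays. NEFM and 1 of 2 probes of PAX2, which belong to that marker list, were called lower in both knock-downs (NEFM by 1.21 and 1.24, PAX2 by 2.41 and 2.65 on the log2 scale), and their part in the lincRNA results was not tested. Of marker genes for other cell types, 2 of 3 endothelial, 3 of 4 fibroblast, 1 of 2 hepatocyte and 3 of 3 immune genes were detected well enough to be tested, and 0 of their probes were called.

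lincRNA probes were detected less often than the others. A probe entered the test when, in 1 group or more, the scanner software called it well above background on all 3 arrays. This held for 5800 lincRNA probes (70.2%), in 5397 regions, against 77.5% of the other probes. On single arrays, 68.9% to 76.0% of lincRNA probes were well above background, and 1466 (17.7%) were so on no array. Detection was alike in the groups, with 5568 lincRNA probes well above background on all 3 arrays in CTL, 5589 in KD3 and 5510 in KD4. Only 1 probe, A_19_P00320619, was well above background on all 3 CTL arrays and on no knock-down array, and 0 showed the opposite pattern on all 6 knock-down arrays. A probe that entered the test through 1 group only was more likely to be high there, so its direction was partly fixed by the filter. Regions with a tested probe had a median length of 11901 bases, compared with 13326 bases for those of probes that were not tested. On the X chromosome 78.7% of lincRNA probes were tested, and on autosomes 69.8%.

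In KD3, 84 of the 5800 tested lincRNA probes were called, 53 up-regulated and 31 down-regulated. A probe was called when its adjusted p in the limma test over all 32276 tested probes was under 0.05 and its change was at least 1.8-fold. The called lincRNA share was 1.45%, against 3.32% of all tested probes. For higher signal the share was 0.914% against 1.12% of all tested probes, and for lower signal 0.534% against 2.2%. The 84 probes lay in 64 loci, a locus being a set of lincRNA regions that overlap on 1 strand. In arrays of slide 2 alone the count was 146, and in slide 1 alone 60. Normexp background correction left 24 called probes, and the methods' t-test with adjustment left 13.

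In KD4, 135 lincRNA probes were called, 65 up-regulated and 70 down-regulated, in 103 loci. This was 2.33% of those tested, against 4.6% of all tested probes. For higher signal the share was 1.12% against 1.42%, and for lower signal 1.21% against 3.19%. The split into higher and lower depended on the scaling, since scaling each array to its 75th percentile gave 101 up-regulated and 55 down-regulated lincRNA probes. With normexp background correction 27 probes were called, as with the methods' t-test and adjustment.

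**Figure D1:**
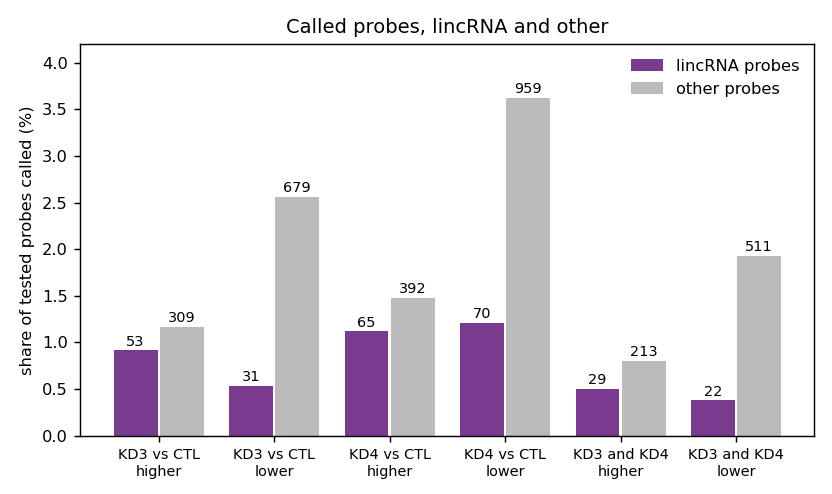
Share of tested probes called (%, vertical axis) among 5800 lincRNA probes and 26476 other probes, by comparison and direction, with the number of called probes above each bar. In the down-regulated classes lincRNA shares were 0.534%, 1.21% and 0.379%, against 2.56%, 3.62% and 1.93% of the other probes, and in the up-regulated classes the bars are closer.

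Up-regulated probes made up 63.1% of the lincRNA calls in KD3, where they made up 31.3% of the calls at other probes. In KD4 these shares were 48.1% and 29.0%. The median log2 fold change over the tested lincRNA probes was 0.04 in KD3 and 0.11 in KD4, beside 0.01 and 0.04 over all tested probes. Under 75th percentile scaling these lincRNA medians were -0.00 and 0.18. The middle 90% of lincRNA log2 fold changes ran from -0.38 to 0.55 in KD3 and from -0.47 to 0.59 in KD4. No test compared lincRNA probes with the others, since probes of 1 array are not independent.

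The knock-downs shared 51 lincRNA calls of the same direction, 29 up-regulated and 22 down-regulated, and 0 probes were called in opposite directions. These were 0.879% of the tested lincRNA probes, 0.5% higher and 0.379% lower, against 2.4%, 0.75% and 1.65% of all tested probes. They amounted to 60.7% of the KD3 calls and 37.8% of the KD4 calls. The knock-downs were compared with the same 3 CTL arrays, so shared calls are not independent evidence. Within slide 1 the shared count was 30, with normexp background correction 15, and with the methods' t-test and adjustment 7.

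**Figure D2:**
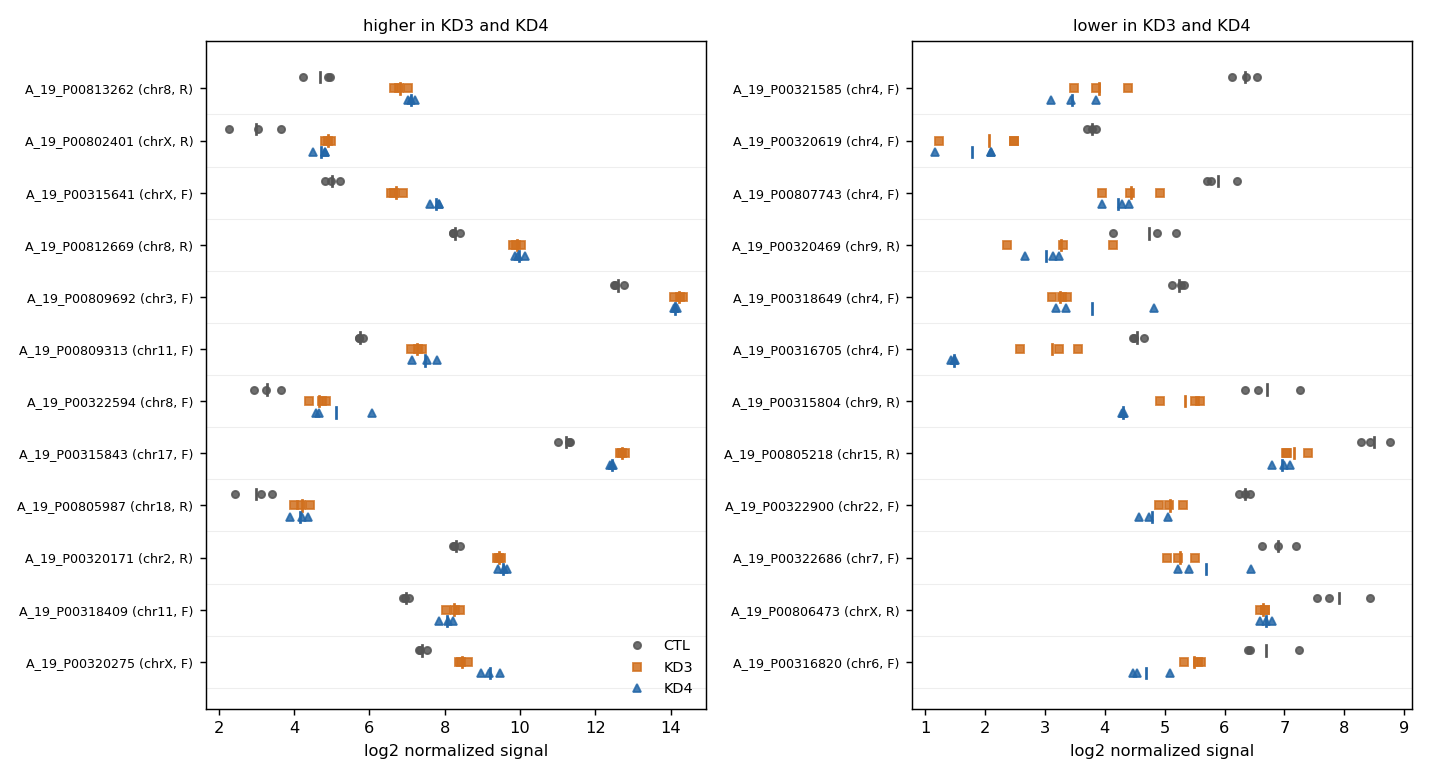
Log2 normalized signal (horizontal axes) on each of the 9 arrays for the 12 up-regulated (left) and 12 down-regulated (right) lincRNA probes with the largest changes shared by KD3 and KD4, 1 per region, labelled with chromosome and strand. Symbols are single arrays and short vertical bars are group means, and signals may be compared within a row only.

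The strongest shared up-regulation was at A_19_P00813262, on the reverse strand of chr8:42980727-42986843. Its log2 normalized signal was 4.90, 4.94 and 4.24 in CTL, 6.65, 6.78 and 7.02 in KD3, and 7.09, 7.04 and 7.21 in KD4. All 6 knock-down arrays lay above the 3 CTL arrays. The log2 fold change was 2.12 ± 0.18 (SE, n = 3 per group, adjusted p = 0.000159, limma) in KD3 and 2.42 ± 0.18 (adjusted p = 6.19e-05) in KD4.

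KD3 and KD4 also shared up-regulation at another region of chromosome 8. A_19_P00812669, in chr8:138331518-138433693 on the reverse strand, read 8.40, 8.22 and 8.21 in CTL, 9.80, 9.90 and 10.02 in KD3 and 9.93, 9.85 and 10.12 in KD4. The groups were separated from CTL by more than any spread between replicates, with log2 fold changes of 1.63 ± 0.10 in KD3 and 1.69 ± 0.10 in KD4. The forward-strand probe of the same interval, A_19_P00801734, was not called (0.36 ± 0.12 and 0.08 ± 0.12). Also on chromosome 8, chr8:107055124-107072278 on the reverse strand had its 2 tested probes, in overlapping regions, called in both knock-downs. A_19_P00808519 rose by 1.31 ± 0.14 in KD3 and 1.05 ± 0.14 in KD4, and A_19_P00328505 by 1.12 ± 0.10 and 0.99 ± 0.10.

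At chr3:9387975-9397375 both strands were up-regulated. The forward-strand probe A_19_P00809692 read 12.75, 12.51 and 12.49 in CTL, 14.08, 14.23 and 14.34 in KD3 and 14.17, 14.12 and 14.08 in KD4. Every knock-down array was above every CTL array, and the log2 fold changes were 1.63 ± 0.10 and 1.54 ± 0.10. The reverse-strand probe A_19_P00801973 rose by 0.89 ± 0.10 in KD3 and 0.89 ± 0.10 in KD4. Of 1307 intervals tested on both strands, this was the only 1 with a shared call on both, and 14 had a shared call on 1 strand only.

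On chromosome 11 a cluster of overlapping forward-strand regions between 65190190 and 65214674 held 6 tested probes, of which 4 were called in KD3 and 3 in KD4, all up-regulated. A_19_P00809313, named for the whole interval, read 5.83, 5.72 and 5.73 in CTL, 7.29, 7.10 and 7.38 in KD3 and 7.13, 7.79 and 7.53 in KD4. Its log2 fold changes were 1.50 ± 0.16 and 1.72 ± 0.16, and KD4 replicate 1 was the lowest of its group. A_19_P00318409, in chr11:65191086-65192284, rose by 1.28 ± 0.12 in KD3 and 1.09 ± 0.12 in KD4. The 2 probes of chr11:65190268-65193997 rose by 1.14 ± 0.12 and 1.17 ± 0.13 in KD3, while in KD4 A_19_P00321333 was called (0.86 ± 0.13) and A_19_P00321332 was not (0.69 ± 0.12). A_19_P00330885 differed little from CTL (0.16 ± 0.28 and 0.05 ± 0.28) although its named region spans nearly the same interval. A_19_P00320033 (chr11:65202405-65204229) was not called (0.34 ± 0.13 and 0.62 ± 0.13). A_19_P00807905, on the reverse strand of the whole interval, was not called either (-0.10 ± 0.14 and -0.08 ± 0.14).

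Among the other up-regulated autosomal probes, 2 came from short regions. A_19_P00315843, in the 188 bases of chr17:75085388-75085575, read 11.02, 11.30 and 11.33 in CTL, 12.71, 12.77 and 12.65 in KD3 and 12.45, 12.48 and 12.39 in KD4. Its log2 fold changes were 1.50 ± 0.09 and 1.22 ± 0.09. A_19_P00320171, in the 365 bases of chr2:179378839-179379203, rose by 1.16 ± 0.09 and 1.26 ± 0.09, with all 6 knock-down arrays between 9.40 and 9.66 and the CTL arrays between 8.21 and 8.41.

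Another pair of autosomal probes had 1 CTL array each with a signal well above background. A_19_P00805987 (chr18:53398227-53474402, reverse) had fitted changes of 1.21 ± 0.25 in KD3 and 1.17 ± 0.25 in KD4. It was well above background on 3 KD3 and 2 KD4 arrays, so it entered the test through KD3 alone. A_19_P00322594 (chr8:590406-605477, forward) had fitted changes of 1.36 ± 0.38 and 1.81 ± 0.38, and KD4 replicate 2, at 6.07, stood above the other KD4 arrays at 4.65 and 4.58. It entered through the knock-downs and not through CTL. Both probes were high in the groups through which they entered, so their calls give no support independent of the filter. With CTL so dim, these changes are no measured sizes. The KD3 call at A_19_P00322594 was lost without KD3 replicate 1 (1.27), KD3 replicate 2 (1.50), KD3 replicate 3 (1.32), CTL replicate 1 (1.35) or CTL replicate 3 (1.19).

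Among down-regulated lincRNAs, a forward-strand locus at chr4:90365352-90646690 held 10 tested probes. Of these, 6 were called lower in both knock-downs. A_19_P00321583, in chr4:90602655-90605092, read 6.80, 7.22 and 7.30 in CTL, 5.04, 4.82 and 4.99 in KD3 and 4.30, 4.45 and 4.34 in KD4. The 3 groups did not overlap, and the log2 fold changes were -2.15 ± 0.13 and -2.74 ± 0.13. A_19_P00321585, of the same region, read 6.12, 6.37 and 6.54 in CTL, 4.39, 3.48 and 3.85 in KD3 and 3.85, 3.09 and 3.43 in KD4. It changed by -2.44 ± 0.26 in KD3 and -2.89 ± 0.26 in KD4, where it was well above background on 1 of 3 arrays.

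Other called probes of the chromosome 4 locus differed in how far they fell. A_19_P00316705 (chr4:90602662-90615087) read 4.48, 4.47 and 4.65 in CTL and was well above background on 1 array of KD3 and on none of KD4. In KD4 it was at least 4.50-fold lower than in CTL (adjusted p = 3.55e-05, limma), the KD4 level being taken as the higher of its own signal and the lowest signal well above background on each array. Probes with signals above that lowest one could still fail detection, so such bounds are approximate. The p-values beside them are of the fitted changes. A_19_P00316705 entered the test through CTL alone, where it was high, so its p-value gives no support independent of the filter. A_19_P00318649 (chr4:90548934-90641190), well above background on no KD3 array, had a fitted change of -1.98 ± 0.36 there, which is no measured size. Its fitted change in KD4 was -1.45 ± 0.36, where KD4 replicate 2 read 4.82 and the others 3.36 and 3.18. Only 1 KD4 array was well above background, so this too is no measured size. Leaving out KD4 replicate 1 (-1.23), KD4 replicate 3 (-1.15) or CTL replicate 3 (-1.41) ended its KD4 call. A_19_P00318649 entered the test through CTL alone, where it was high, so its calls give no support independent of the filter. A_19_P00807743 (chr4:90603427-90616902) fell by 1.47 ± 0.24 and 1.68 ± 0.24, and A_19_P00321671 (chr4:90602662-90614309) by 1.13 ± 0.20 and 1.12 ± 0.20.

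The other 4 tested probes of this locus changed by less. A_19_P00318909 (chr4:90602675-90606883), which overlaps the called regions almost entirely, had log2 fold changes of -0.21 ± 0.12 and -0.22 ± 0.12. A_19_P00319453, whose region begins farthest 5′ of the 10, had -0.33 ± 0.07 and -0.38 ± 0.07, and A_19_P00330289 and A_19_P00323152, at the 3′ end, had -0.10 ± 0.12 and -0.20 ± 0.18 in KD3.

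A reverse-strand locus at chr9:2452800-2570755 was down-regulated at 3 of 5 tested probes in KD3 and at 4 in KD4. A_19_P00315804 (chr9:2530903-2539456) read 6.34, 6.56 and 7.26 in CTL, 5.51, 5.59 and 4.92 in KD3 and 4.28, 4.32 and 4.30 in KD4. It changed by -1.38 ± 0.24 and -2.42 ± 0.24, and KD4 lay below KD3 on every array, although the difference of -1.04 did not pass the test (adjusted p = 0.0672). In chr9:2535671-2536375, A_19_P00320471 fell by 1.18 ± 0.20 in KD3 and 1.18 ± 0.20 in KD4. A_19_P00320469, of the same region, was well above background on 1 KD3 array and on no KD4 array. It changed by -1.46 ± 0.43 in KD3, where 1 array (4.14) reached the lowest CTL array (4.13). Its fitted change in KD4 was -1.72 ± 0.43 (adjusted p = 0.0183, limma), which is no measured size. A_19_P00320469 entered the test through CTL alone, where it was high, so its calls give no support independent of the filter.

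The calls at A_19_P00320469 were lost when some single arrays were left out, in several fits with a change no smaller than in the full fit. Its KD3 call was lost without KD3 replicate 2 (-1.48), KD3 replicate 3 (-1.01), CTL replicate 2 (-1.39) or CTL replicate 3 (-1.23), and also without any 1 KD4 array (-1.46). Its KD4 call ended when KD4 replicate 2 (-1.55), CTL replicate 2 (-1.65) or CTL replicate 3 (-1.49) was left out. The fifth probe of the locus, A_19_P00320872, was not called (0.18 ± 0.40 and 0.99 ± 0.40), and KD4 replicate 1 read 6.98 there against 5.34 and 5.62 in the other KD4 arrays.

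Another chromosome 4 probe, A_19_P00320619 (chr4:206419-249771, forward), read 3.85, 3.71 and 3.78 in CTL and was not well above background on any knock-down array. With levels taken as for A_19_P00316705, A_19_P00320619 was at least 2.53-fold lower in KD3 and 2.67-fold lower in KD4. The adjusted p-values (0.0116 and 0.00441, limma) are of its fitted changes, -1.72 ± 0.36 and -1.99 ± 0.36. This probe entered the test through CTL alone, where it was high, so these p-values give no support independent of the filter. A_19_P00805218 (chr15:95807796-95868971, reverse) was well above background on all arrays, at 8.27, 8.44 and 8.76 in CTL, 7.40, 7.03 and 7.05 in KD3 and from 6.79 to 7.09 in KD4. A_19_P00805218 fell by 1.33 ± 0.15 and 1.53 ± 0.15, and A_19_P00811127, on the other strand of this interval, was not called (0.27 ± 0.28 and 0.26 ± 0.28).

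A_19_P00316820 (chr6:2399240-2483413, forward) fell by 1.19 ± 0.25 in KD3 and 1.99 ± 0.25 in KD4. A_19_P00322686 (chr7:26533637-26536770, forward) fell by 1.65 ± 0.30 and 1.22 ± 0.30, with KD4 replicate 3 at 6.44 above the other KD4 arrays at 5.40 and 5.22. Leaving out KD4 replicate 1 (-1.07), KD4 replicate 2 (-0.98) or CTL replicate 3 (-1.07) ended its KD4 call. A_19_P00322900 (chr22:27053483-27072438, forward) fell by 1.25 ± 0.14 and 1.55 ± 0.14. A short forward-strand locus at chr18:5238975-5246369 had both of its tested probes down-regulated, with A_19_P00322390 falling by 1.18 ± 0.10 and 0.97 ± 0.10 and A_19_P00326065 by 1.63 ± 0.23 and 0.96 ± 0.23.

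**Figure D3:**
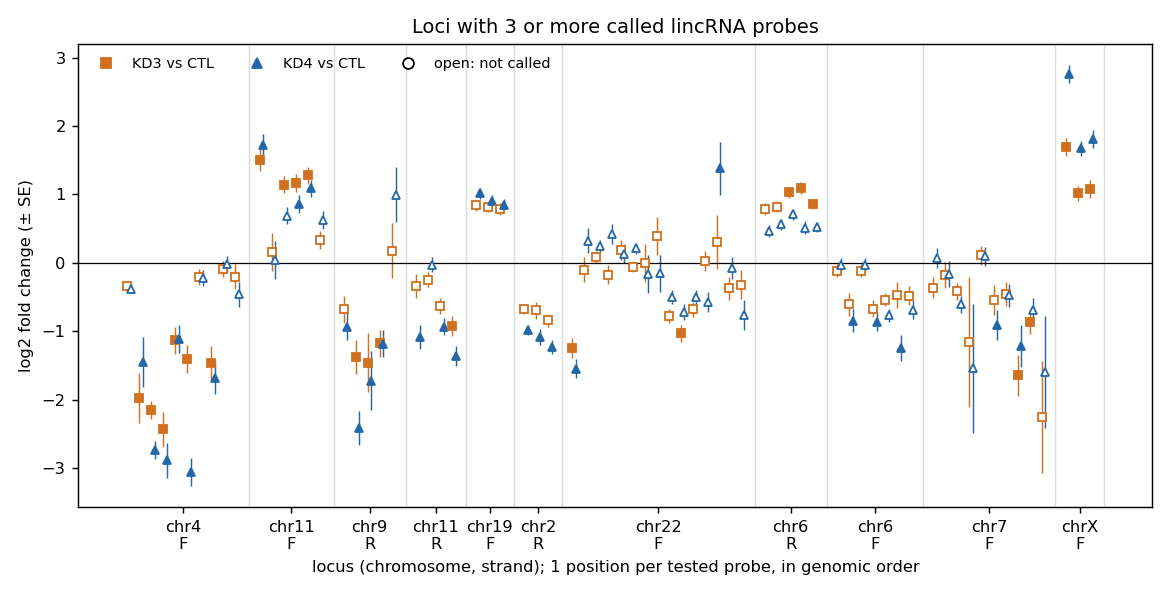
Log2 fold change against CTL (vertical axis, bars ± SE, 3 arrays per group) for every tested probe in the 11 loci with 3 or more called lincRNA probes, with loci separated by grey lines and probes in genomic order. Filled symbols were called and open ones were not. At the chr4 locus 6 of 10 probes are filled below 0 in both knock-downs, and at the chrX locus 3 of 3 are filled above 0.

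Some calls were shared by overlapping regions. Joined by overlap, the 7405 regions formed 4323 loci, of which 1112 had 2 or more tested probes. The 168 probes called in either knock-down lay in 128 loci, 24 of which held 2 or more called probes (64 probes in all). Only 1 locus held calls in opposite directions. This was the forward-strand locus chr22:27042391-27309800, with 15 tested probes. There A_19_P00322900 was down-regulated in both knock-downs, and A_19_P00321068 in KD3 only (-1.03 ± 0.12, beside -0.72 ± 0.12 in KD4). A_19_P00321636 was up-regulated in KD4 (1.38 ± 0.39, adjusted p = 0.0302, limma). At A_19_P00321636 the KD4 arrays read 6.48, 5.00 and 6.53 and the CTL arrays 4.60, 4.81 and 4.46.

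Some loci were called in 1 knock-down only, with changes of the same sign below the fold threshold in the other. At chr19:57815819-57819926 on the forward strand all 3 tested probes were up-regulated in KD4, by 0.85 to 1.02, and their log2 fold changes in KD3 were 0.79 to 0.84. At chr2:177494316-177502754 on the reverse strand all 3 were down-regulated in KD4, from -1.23 to -0.98, beside -0.84 to -0.68 in KD3. At chr6:73983629-74020088 on the reverse strand, 3 of 5 probes were up-regulated in KD3, and the 5 ranged from 0.78 to 1.09 there and from 0.47 to 0.71 in KD4. None of these probes was called between KD4 and KD3.

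Agreement between probes of 1 named region was partial. Among 394 regions with 2 or more tested probes (797 probes), the log2 fold changes of a region's probes had a median range of 0.11 for KD3 and 0.15 for KD4. A region's probes all had the same sign in 72.1% of regions in KD3 and 71.1% in KD4, while 57.1% and 65.4% of all tested lincRNA probes had a log2 fold change above 0. No comparison with probes of different regions was made. Of 10 such regions with a call in KD3, 3 had every probe called and 7 had only some. In KD4, 8 of 16 had every probe called. No region held calls in both directions within a comparison.

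The largest disagreement within a region called in KD3 was at chr7:116072039-116093614 on the reverse strand. A_19_P00326236 read 5.40, 4.44 and 4.51 in CTL and 3.75, 3.85 and 4.13 in KD3, a change of -0.87 ± 0.23 that was called. A_19_P00332541 read 5.62, 5.34 and 5.42 in CTL and 5.38, 6.68 and 5.78 in KD3, a change of 0.49 ± 0.28 that was not.

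On the X chromosome, of which SMCHD1 helps to silence the inactive copy, 307 lincRNA probes were tested and 13 were called in either knock-down, in 10 loci. In each knock-down 8 were up-regulated (2.61%) and 1 was down-regulated (0.326%). On autosomes 45 of 5493 tested lincRNA probes were up-regulated in KD3 (0.819%) and 57 in KD4 (1.04%), and 30 and 69 were down-regulated. In KD3 the median log2 fold change was 0.10 for X probes and 0.04 for autosomal lincRNA probes. In KD4 these medians were 0.16 and 0.11. These shares were not tested, since neighbouring probes share a transcript.

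The X chromosome probe with the largest KD4 change was A_19_P00315641 (chrX:139791944-139854842, forward). It read 4.82, 4.97 and 5.23 in CTL, 6.89, 6.64 and 6.56 in KD3 and 7.84, 7.61 and 7.85 in KD4. The 3 groups did not overlap, with log2 fold changes of 1.69 ± 0.13 in KD3 and 2.76 ± 0.13 in KD4, and KD4 exceeded KD3 by 1.07 ± 0.13 (adjusted p = 0.00758). The other tested probes of this locus rose too. A_19_P00320275 (chrX:139798210-139854508) changed by 1.07 ± 0.13 and 1.81 ± 0.13, and A_19_P00807974 (chrX:139795484-139814909) by 1.01 ± 0.11 and 1.67 ± 0.11. The reverse-strand probe A_19_P00807134 was not called (0.24 ± 0.18 and 0.40 ± 0.18).

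**Figure D4:**
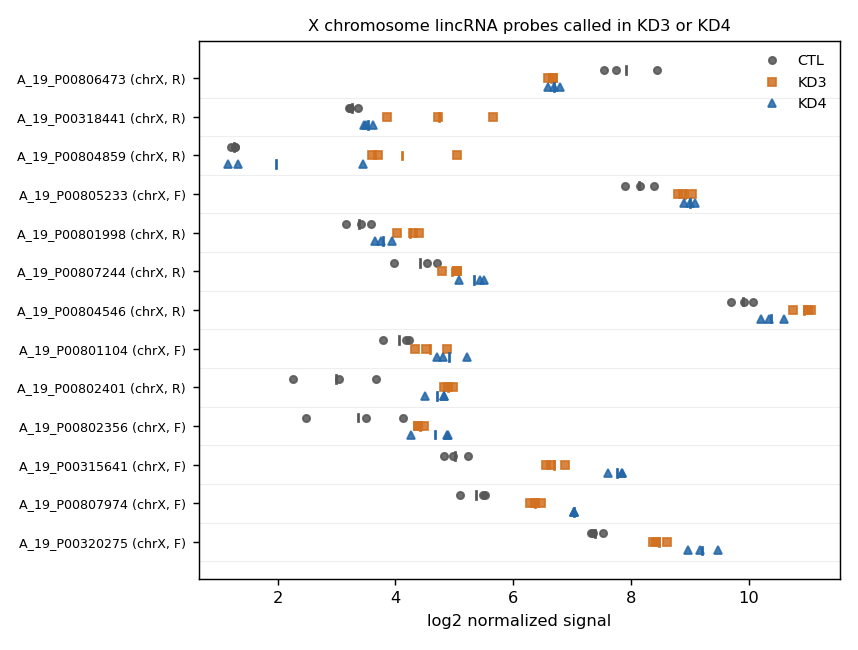
Log2 normalized signal (horizontal axis) on each of the 9 arrays for the 13 X chromosome lincRNA probes called in KD3 or KD4, in order of position, with short vertical bars at group means. All but the top row have their called knock-down to the right of CTL, and in the bottom 3 rows KD4 lies to the right of KD3.

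At chrX:138251234-138266684 both strands had up-regulated probes. On the reverse strand A_19_P00802401 read 2.27, 3.67 and 3.04 in CTL, where 1 array was well above background, 4.82, 4.97 and 4.89 in KD3 and 4.82, 4.50 and 4.82 in KD4. Its fitted changes were 1.91 ± 0.29 and 1.72 ± 0.29, which are no measured sizes with CTL so dim. It entered the test through the knock-downs alone, where it was high, so its calls give no support independent of the filter. On the forward strand A_19_P00802356 and A_19_P00801104 were called in KD4, at 1.30 ± 0.36 and 0.85 ± 0.19, and had 1.05 ± 0.36 and 0.51 ± 0.19 in KD3. A_19_P00802356 was also well above background on only 1 CTL array, so both limits given for A_19_P00802401 hold for it. The KD4 call of A_19_P00802356 ended when KD4 replicate 2 (1.20), KD4 replicate 3 (1.20) or CTL replicate 3 (1.37) was left out, and a KD3 call was gained without CTL replicate 2 (1.43). That of A_19_P00801104 was lost without KD4 replicate 3 (0.70) or CTL replicate 1 (0.71).

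Other X chromosome probes were called in KD3 only. A_19_P00804859 (chrX:45598006-45710406, reverse) was well above background on none of the 3 CTL arrays and read 5.05, 3.61 and 3.70 in KD3, at least 3.38-fold higher (adjusted p = 0.0113). In KD4 1 array read 3.45 and the others 1.32 and 1.16. A_19_P00804859 entered the test through KD3 alone, where it was high, so its p-value gives no support independent of the filter. A_19_P00804546 (chrX:133675909-133683184, reverse) rose by 1.04 ± 0.14 in KD3 and had 0.48 ± 0.14 in KD4, and A_19_P00811178, of the same region, was not called (0.75 ± 0.15 and 0.26 ± 0.15). A_19_P00801998 (chrX:56771900-56794000, reverse) had a fitted change of 0.85 in KD3 (adjusted p = 0.00382, limma), although it was not well above background on all 9 arrays. That call was lost without KD3 replicate 1 (0.82), KD3 replicate 3 (0.77) or CTL replicate 1 (0.73). A_19_P00318441 (chrX:15706783-15715541, reverse) had 3.85, 5.65 and 4.73 in KD3 against 3.21 to 3.36 in CTL, and its call at 1.48 ± 0.36 was lost without KD3 replicate 3 (1.48), CTL replicate 1 (1.52), CTL replicate 2 (1.45) or CTL replicate 3 (1.46).

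The remaining X chromosome calls were in KD4 or in both. A_19_P00805233 (chrX:56758598-56844002, forward) rose by 0.85 ± 0.13 in KD4 and had 0.77 ± 0.13 in KD3. Its KD4 call was lost without KD4 replicate 3 (0.80) or CTL replicate 1 (0.73), and a KD3 call was gained without CTL replicate 3 (0.89). A_19_P00807244 (chrX:73164675-73232875, reverse) rose by 0.93 ± 0.19 in KD4, a call lost without KD4 replicate 3 (0.84) or CTL replicate 1 (0.71). The other tested probes of this region, A_19_P00802989 (0.63 ± 0.28) and A_19_P00806702 (0.18 ± 0.10), were not called in KD4. The down-regulated one, A_19_P00806473 (chrX:13269404-13285729, reverse), read 7.54, 7.75 and 8.44 in CTL and between 6.59 and 6.80 on all 6 knock-down arrays, a change of -1.26 ± 0.20 in KD3 and -1.21 ± 0.20 in KD4.

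The knock-downs differed from each other at 12 lincRNA probes, 5 higher and 7 lower in KD4 than in KD3. This was 0.207% of tested lincRNA probes, 0.0862% higher and 0.121% lower, against 0.443%, 0.204% and 0.239% of all tested probes. Of the 117 probes called in 1 knock-down and not in the other, 5 were among these 12, so for the other probes a difference between the knock-downs was not shown. Within slide 1 the count was 1 and within slide 2 it was 28. Normexp background correction left 3. The methods' t-test gave 0 after adjustment and 19 before it, at an unadjusted p under 0.05 and the same fold threshold.

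A_19_P00316641, in chr2:121300485-121301954 on the forward strand, showed the largest difference. It read 5.38, 5.82 and 5.42 in CTL and 5.61, 6.12 and 6.19 in KD4, and it was not well above background on any KD3 array. Its fitted signal was 7.70-fold lower in KD3 than in CTL (adjusted p = 2.19e-05, limma). It was 10.4-fold higher in KD4 than in KD3 (adjusted p = 9.94e-05, limma). These are no measured sizes, since the KD3 signal was not well above background. The probe entered the test through CTL and KD4, where it was high, and not through KD3. These p-values therefore give no support independent of the filter. KD4 and CTL overlapped, and their difference of 0.43 ± 0.17 did not pass the test.

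A_19_P00324030 (chr1:79897287-79954287, reverse) read 4.72, 5.04 and 4.69 in CTL, 5.17, 5.26 and 5.42 in KD3 and 6.80, 6.69 and 6.15 in KD4. It was higher in KD4 than in KD3 by 1.26 ± 0.18, a call lost without KD3 replicate 2 (1.25) or KD4 replicate 2 (1.19). The other tested probe of this region, A_19_P00326169, differed by 0.04 ± 0.29 between the knock-downs. A_19_P00810799 (chr10:19930169-20099994, forward) rose by 0.90 ± 0.14 in KD3, had -0.29 ± 0.14 in KD4, and was lower in KD4 than in KD3 by 1.19. Its arrays read 14.73, 14.79 and 15.20 in CTL, 15.62, 15.92 and 15.89 in KD3 and 14.54, 14.59 and 14.72 in KD4, so KD3 lay above both other groups. Its KD3 call was lost without CTL replicate 1 (0.82) or CTL replicate 2 (0.84).

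A_19_P00326143 (chr6:48044816-48070216, reverse) fell in both knock-downs and further in KD4. It read 9.44, 9.83 and 10.03 in CTL, 8.73, 8.64 and 8.58 in KD3 and 7.38, 7.51 and 7.50 in KD4, with changes of -1.11 ± 0.14 and -2.31 ± 0.14. The 3 groups did not overlap, and the difference between the knock-downs was -1.19 ± 0.14 (adjusted p = 0.00605).

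**Figure D5:**
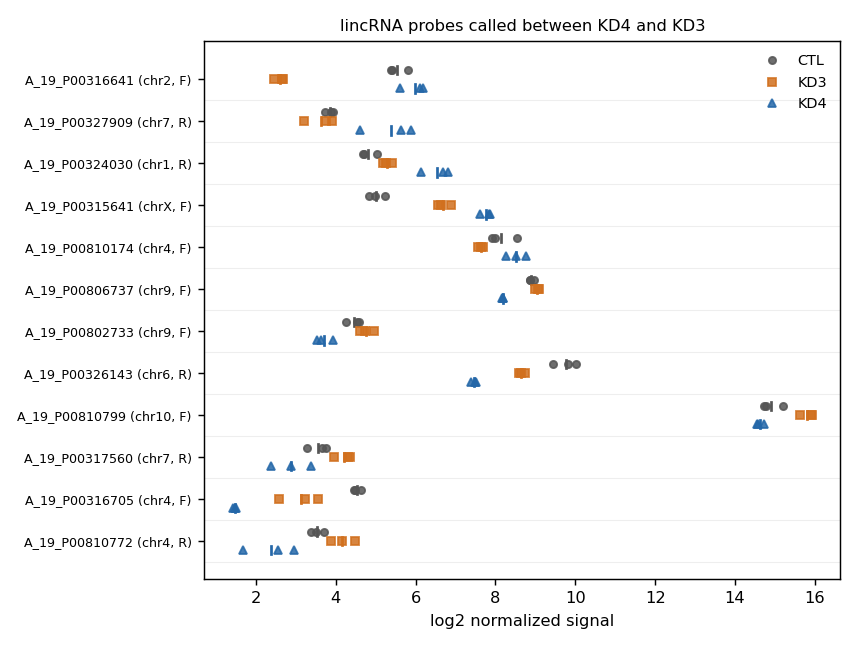
Log2 normalized signal (horizontal axis) on each of the 9 arrays for the 12 lincRNA probes called between KD4 and KD3, ordered from the most positive to the most negative difference, with short vertical bars at group means. In the top row KD3 lies near 2.6 while CTL and KD4 overlap, and in every row the KD3 and KD4 symbols are apart.

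Calls between the knock-downs at A_19_P00327909, A_19_P00810174, A_19_P00810772 and A_19_P00317560 were lost when some single arrays were left out. In several of these fits the difference was no smaller than in the full fit. A_19_P00327909 (chr7:30439125-30454050, reverse) was higher in KD4 than in KD3 by 1.76 ± 0.31, a call lost without KD3 replicate 1 (1.55), KD3 replicate 2 (1.90), KD3 replicate 3 (1.83), KD4 replicate 2 (1.51) or KD4 replicate 3 (1.63). A_19_P00810174 (chr4:3297502-3310352, forward) was higher by 0.88 ± 0.18, a call that was lost without any 1 array except CTL replicate 1 (range 0.75 to 1.00). A_19_P00810772 (chr4:68298815-68299154, reverse) was at least 2.88-fold lower in KD4 than in KD3, a call lost without KD3 replicate 1 (-1.62), KD3 replicate 2 (-1.79) or KD4 replicate 1 (-1.86). Its KD4 call against CTL (-1.14 ± 0.29) ended when KD4 replicate 3 (-0.78), CTL replicate 1 (-1.06) or CTL replicate 2 (-1.15) was left out. Since neither CTL nor KD4 was well above background on all its arrays, that change is no measured size. A_19_P00317560 (chr7:130567407-130598069, reverse) was lower in KD4 than in KD3 by a fitted 1.33 ± 0.24, a call lost without KD3 replicate 1 (-1.46), KD3 replicate 2 (-1.25), KD3 replicate 3 (-1.27), KD4 replicate 1 (-1.08) or KD4 replicate 2 (-1.32). It too entered the test through KD3 alone, and KD4 replicate 3 read 3.39 without being well above background.

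The lincRNA probes with the highest mean signal did not change in these comparisons by the threshold used. The 5 highest, 1 per region, were A_19_P00331623 (chrX:73040495-73047819, reverse), A_19_P00809968 (chr18:5232477-5246926, reverse), A_19_P00807729 (chr3:106526585-106630535, reverse), A_19_P00802027 (chr9:111293604-111458604, forward) and A_19_P00323692 (chrX:73040575-73071647, reverse). Signal depends on the probe as well as on its RNA, so their order is not an order of RNA amounts. Their log2 fold changes ranged from -0.23 to 0.11 in KD3 and from -0.16 to 0.07 in KD4. At A_19_P00802027 the change of -0.23 ± 0.06 in KD3 had an adjusted p of 0.0302 but was far below 1.8-fold.

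Long non-coding RNAs with established names have probes of their own under RefSeq accessions. Of a list of 50, 37 were found on the array by accession and 33 were tested. Of their 38 tested probes, 2 were down-regulated in KD3 and 2 in KD4, where 2.2% and 3.19% of all tested probes were lower, and 0 were up-regulated in either. The medians over these probes were 0.06 in KD3 and 0.01 in KD4. MIAT, a nuclear long non-coding RNA, read 5.18, 4.96 and 5.28 in CTL, 3.91, 4.22 and 4.16 in KD3 and 3.83, 4.13 and 3.90 in KD4, and fell by 1.04 ± 0.12 and 1.18 ± 0.12. HOTAIR, a transcript of the HOXC cluster, fell by 0.93 ± 0.10 in KD4 and had -0.67 ± 0.10 in KD3. H19, an imprinted and maternally expressed RNA, fell by 1.04 ± 0.18 in KD3 and had -0.70 ± 0.18 in KD4. MALAT1, abundant in nuclear speckles, was not called (0.52 ± 0.15 and 0.28 ± 0.15). How these genes and protein-coding genes lie relative to the lincRNA regions was not analysed here, because the gene table used for names is on another build.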

How the data were processed

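RNA of 9 cultures (3 per group) was hybridized to Agilent SurePrint G3 human arrays, 1 color (Cy3), and scanned and extracted with Agilent Feature Extraction 10.10 by the authors. The deposited scanner files hold a green processed signal, an intensity corrected for background, for each spot. The authors' deposited table holds log2 values that they had quantile normalized, and it served as an alternative here. No read depth exists for arrays, so the 3 arrays per group limit the precision. Coordinates are those of the array's region names (GRCh37 in the file headers), and 15 probes named for hg18 regions were outside the rule.

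Here, spots flagged as outliers were dropped, the processed signal was quantile normalized over the 9 arrays on the log2 scale, and spots of a probe were averaged (a probe with several spots counted as well above background when no fewer of them were so than not). A signal value was missing for 21 probes on some array, 9 of them lincRNA, and these were left out. limma 3.58.1 in R 4.3.3 fitted 1 mean per group to 32276 probes, with empirical Bayes moderated variances and Benjamini-Hochberg adjustment over all of them. Calls needed an adjusted p under 0.05 and a change of at least 1.8-fold. SE values are limma's, and p-values measure the spread between these arrays. The fit was tested on simulated data in which 100 probes each changed by 1 or 2 on the log2 scale: for KD3 64 and 99 were recovered, and for KD4 70 and 97.

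Named probes were, 1 per region, the 12 higher and 12 lower with the largest smaller change in both knock-downs, the 5 higher and 5 lower with the largest difference between KD4 and KD3, the 5 with the highest mean signal, every called X chromosome probe, SMCHD1 and called genes of the named list. Other probes of the loci described were chosen after their values were seen. lincRNA probes and gene lists were chosen with earlier results of these data known, and loci were added after seeing the data. Gene names came from RefSeq accessions (GRCh38.p14 table, 25422 probes matched). The 2 slides each held all 3 groups and were used as a block and separately. Alternatives covered scaling, background correction, detection filters, the methods' t-test, blocks and leaving out arrays.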

Additional observations from a re-analysis of the deposited data

Results flagged for a closer look

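The 12 lincRNA probes below differed between the knock-downs by the direct test of KD4 against KD3 (limma, adjusted p under 0.05 and a fitted change of at least 1.8-fold). Higher in KD4 on the log2 scale were A_19_P00316641 (3.38, no measured size, since KD3 was not well above background), A_19_P00327909 (1.76), A_19_P00324030 (1.26), A_19_P00315641 (1.07) and A_19_P00810174 (0.88). Lower in KD4 were A_19_P00810772 (-1.78), A_19_P00316705 (-1.65), A_19_P00317560 (-1.33), A_19_P00810799 (-1.19), A_19_P00326143 (-1.19), A_19_P00802733 (-1.06) and A_19_P00806737 (-0.87). KD4 was well above background on none of its 3 arrays at A_19_P00810772, A_19_P00316705 and A_19_P00317560, so these 3 values are no measured sizes. With KD4 levels under the lowest signal well above background raised to it, they were 2.88-fold, 1.69-fold and 2.45-fold lower in KD4. The value for A_19_P00316705 is under the fold threshold. A_19_P00810772 and A_19_P00317560 entered the test through KD3 alone, the higher group of the comparison, and A_19_P00316705 through CTL alone.

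Of the 12, A_19_P00802733 (chr9:3526975-3532270, forward) and A_19_P00806737 (chr9:21879775-21938825, forward) are described here only. A_19_P00802733 read 4.95, 4.72 and 4.60 in KD3, 3.62, 3.54 and 3.93 in KD4 and 4.26, 4.59 and 4.53 in CTL. A_19_P00806737 read 9.10, 9.07 and 8.98 in KD3, 8.17, 8.18 and 8.20 in KD4 and 8.86, 8.86 and 8.97 in CTL, and KD4 lay below both other groups (adjusted p = 0.000713 against KD3). Neither was called against CTL in KD4 at 1.8-fold, with log2 fold changes of -0.77 and -0.72.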

How the results depend on the processing

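Counts of called lincRNA probes in KD3, in KD4, in both and between KD4 and KD3 were 84, 135, 51 and 12. With normexp background correction they were 24, 27, 15 and 3, with the methods' t-test and adjustment 13, 27, 7 and 0, and without the fold threshold 601, 896, 436 and 57. Before adjustment the methods' t-test gave 19 between KD4 and KD3. Within slide 1 the counts were 60, 151, 30 and 1, and within slide 2 they were 146, 110, 51 and 28. Within slides a group can have 1 array, which is then assumed to vary like the others. Leaving out 1 array gave 81 to 97, 117 to 150, 47 to 61 and 8 to 16. Scaling, the authors' log2 values, both detection filters and fits of 2 groups or with the slide as a block kept each count within 1.5 times.

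The replicate numbers did not pair the arrays, as same-number arrays correlated between -0.08 and 0.14 after removing group means. With the replicate block the counts were 81, 140, 54 and 10. Over 102 probe and contrast pairs of the 46 named probes, 252 of 2105 alternative values lost a call, 9 gained one and 0 reversed a called direction. The 2105 include pairs not called in the full fit, which could not lose a call. Losses were most frequent under the methods' t-test with adjustment (59 of the 102 pairs) and normexp background correction (41). That t-test lost both calls at A_19_P00813262 and both at A_19_P00809313. Joining overlapping regions into loci, an alternative chosen after seeing the data, gave 38 in KD3 and 58 in KD4 with some but not all probes called, against 7 and 8 named regions. Dim probes limited these results, since 2463 lincRNA probes were not tested. The analysis of nearby coding genes at 100 kb was not run, because the gene table is on another build.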
